A study of Mus musculus with 6 samples.

Results

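Regulatory T cells (Treg) restrain other cells through secreted and surface molecules, and 8 genes of that kind were followed in cultured mouse Treg with 2 forms of the transcription factor FOXP3. They are Il10, Ebi3, Tgfb1, Fgl2, Lrrc32, Nrp1, Gpr83 and Izumo1r, chosen by name, and all 8 were found among the 14777 genes of the count table. The dE2 cells (labelled FOXP3 ΔE2, 3 libraries) carried a deletion of exon 2 of Foxp3, and the FL cells (3 libraries) had full-length FOXP3. Both groups came from C57BL/6 mice and had the same culture, in which naive CD4 T cells were stimulated for 3 days through CD3 and CD28 with added TGF-beta (5 ng/ml) and IL-2 (20 ng/ml), and the labels give over 90% FOXP3-positive cells. The labels do not give the age of the mice or how exon 2 was removed. They do not say either whether a replicate is another animal or another culture, and the p-values then measure only how far these 6 libraries spread, which may be technical.

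Treg act through secreted and surface molecules. Interleukin 10 dampens macrophages, dendritic cells and T cells. EBI3 is a subunit shared by the interleukins IL-27 and IL-35, and FGL2 is a fibrinogen-like protein that, in its soluble form, acts on antigen-presenting cells through an inhibitory Fc receptor. TGF-beta 1 is secreted in a latent form, which the protein GARP, encoded by Lrrc32, docks on the Treg surface. Neuropilin 1 (Nrp1), the orphan receptor GPR83 and the folate receptor relative FR4 (Izumo1r) are surface proteins by which mouse Treg are recognised, and Nrp1 is used to tell thymus-derived from induced Treg.

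The libraries held 13307155 to 16140432 counts each. Foxp3 stood at 436.5, 403 and 335 CPM (counts scaled to a common library size) in dE2 and 447, 397 and 337 CPM in FL, a log2 fold change of -0.01 ± 0.14 (SE), and its gene-level count does not check the loss of exon 2. Of the 4577 exon bases that GENCODE M21 gives Foxp3, 853 are shared with Flicr, 590 with Ccdc22, 373 with Gm36995 and 266 with Ppp1r3f. Reads carried no strand information, and the part of this sharing in the Foxp3 counts was not tested. The 5 Treg markers examined summed to 6132 to 7936 CPM in dE2 and 6354 to 7093 CPM in FL. Their log2 fold changes ran from -0.38 (Ikzf2) to 0.27 (Tnfrsf18), and 0 passed the threshold. All 6 T cell markers examined were present. Their summed level was 6343 to 7398 CPM in dE2 and 4790 to 5594 CPM in FL, and of them Cd4 rose (0.49 ± 0.14, edgeR quasi-likelihood test, adjusted p = 0.044). None of the tested markers of other cells passed the threshold. The summed CD8 T cell markers (Cd8a and Cd8b1) were 50.8 to 138 CPM in dE2 and 29.0 to 53.0 CPM in FL, and 4 of 5 B cell markers summed to 14.7 to 33.7 CPM in dE2 and 14.8 to 33.5 CPM in FL. Of the NK cell list 3 of 4 markers summed to 77.7 to 111 CPM in dE2 and 59.1 to 66.6 CPM in FL. For macrophages and monocytes 2 of 8 markers summed to 8.97 to 22.6 CPM in dE2 and 4.52 to 7.86 CPM in FL, and for dendritic cells 2 of 7 summed to 10.2 to 15.5 CPM in dE2 and 6.52 to 9.77 CPM in FL. Pecam1, the 1 endothelial marker of 3 that could be followed, was 183 to 253 CPM in dE2 and 195 to 247 CPM in FL, and Itga2b, the 1 platelet marker of 3, was at 0.542 to 1.14 CPM in dE2 and 0.535 to 0.920 CPM in FL. The T cell, NK cell, macrophage and dendritic cell sums were higher in each dE2 library than in each FL library. By gene, Klrd1 (NK cell), Cd68 (macrophage) and Batf3 (dendritic cell) lay apart in this way. Eomes and Klrb1c (NK cell), Lyz2 (macrophage) and Zbtb46 (dendritic cell) overlapped between the groups. Of all tested genes 13.6% lay apart with dE2 higher. The part of these other cells in the results was not tested. The other markers of these lists were not analysed here. In bulk RNA, more cells of a type and more RNA per cell cannot be told apart.

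The comparison of dE2 with FL asks how the RNA level of these genes differs between the 2 forms of FOXP3. Among the 8 genes, Il10 rose in dE2, and the other 7 did not pass the test by group alone (edgeR quasi-likelihood test, adjusted p under 0.05 over 14632 tested genes). That fit called 6.17% of all tested genes in either direction, 3.75% higher and 2.43% lower in dE2. With the replicate number added as a block, Fgl2 (higher, adjusted p = 4.3e-11) and Tgfb1 (lower, adjusted p = 0.037) passed as well. The block fit called 11.5% of all tested genes higher and 10.1% lower. It estimates each gene's spread with the help of all genes, so its small p-values do not rest on a gene's 3 pairs of libraries alone. The 3 libraries of one group lay wholly apart from those of the other for Il10 and Fgl2, with dE2 higher, and for Lrrc32, with dE2 lower. Such separation was seen in 13.6% of all tested genes with dE2 higher and in 13.5% with dE2 lower. The median log2 fold change of the 8 genes was 0.04, and that of all tested genes was -0.0043.

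**Figure D1:**
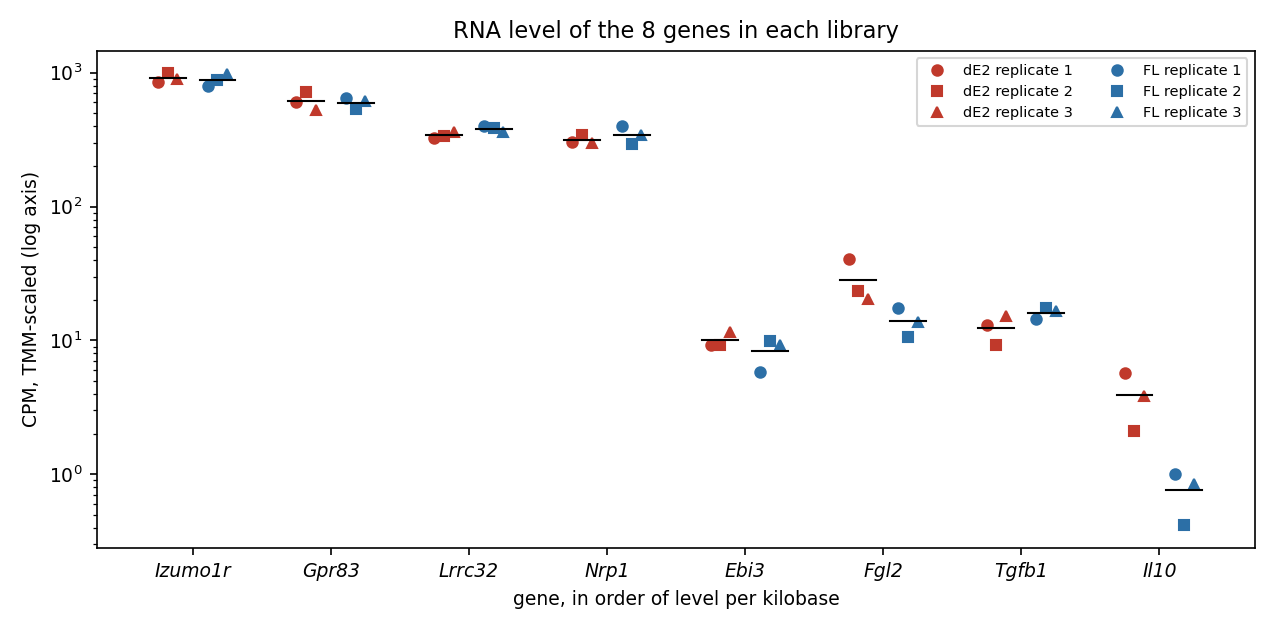
RNA level of the 8 genes in CPM on a log axis, with 1 point for each library (dE2 red, FL blue, the shape gives the replicate number) and a line at each group's mean. Izumo1r, Gpr83, Lrrc32 and Nrp1 stand at 292 to 988.5 CPM in both groups, Ebi3, Fgl2 and Tgfb1 at 5.85 to 40.6 CPM, and Il10 at 2.09 to 5.75 CPM in dE2 and 0.416 to 1.01 CPM in FL.

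Levels between genes were set side by side as CPM per kilobase of counted exon length (RPKM). The RNA of 4 genes of surface proteins was the most abundant of the 8. Izumo1r had the highest level, 345 to 426 RPKM over the 6 libraries, a level above that of 99.0% of tested genes. Gpr83 followed at 103 to 141 RPKM, Lrrc32 at 69.6 to 85.3 RPKM and Nrp1 at 29.8 to 41.1 RPKM. The ranges of these 4 genes did not overlap with each other, nor that of Nrp1 with the next gene. The other 4 genes lay lower, Ebi3 at 5.00 to 9.85 RPKM, Fgl2 at 2.78 to 10.7 RPKM, Tgfb1 at 1.83 to 3.47 RPKM and Il10 at 0.318 to 4.39 RPKM. Here the range of each gene overlapped with that of the next. Il10 had a mean level above that of 27.6% of tested genes.

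Il10 (ENSMUSG00000016529, mm10 chromosome 1, 131019845 to 131024974, plus strand, 1310 counted exon bases) encodes interleukin 10. It had 86, 27 and 56 counts in dE2 replicates 1 to 3 and 15, 7 and 12 counts in FL replicates 1 to 3. These counts correspond to 5.75, 2.09 and 3.86 CPM in dE2, against 1.01, 0.416 and 0.849 CPM in FL. Each dE2 library was above each FL library, and in both groups replicate 2 was the lowest. The mean was 3.90 ± 1.83 CPM in dE2 and 0.758 ± 0.306 CPM in FL (SD, n = 3 each). The log2 fold change was 2.38 ± 0.39 (SE; edgeR quasi-likelihood test, adjusted p = 0.0022), which is 5.21-fold with a 95% interval of 2.93 to 9.28. Between libraries of the same replicate number dE2 was 5.71-, 5.02- and 4.55-fold higher. With any 1 library left out the log2 fold change stayed between 1.99 and 2.67 and the gene stayed called. In the authors' deposited table Il10 has a log2 fold change of 2.37 and an adjusted p of 1.8e-06.

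Among the 10135 genes with a mean of at least 5 CPM, those closest to Il10 in centred log2 CPM over the 6 libraries were Il24, Il9 and Cercam. Their root mean square differences from Il10 were 0.20, 0.39 and 0.45 log2 units, against 1.19 for the spread of Il10 around its own mean. This is a description of 6 libraries in 2 groups. Il24, a relative of Il10 in the IL-10 cytokine family, stood at 27.8, 14.6 and 21.0 CPM in dE2 and 5.31, 3.51 and 4.96 CPM in FL. Il9, which encodes a T cell growth and mast cell cytokine, stood at 39.0, 9.37 and 25.2 CPM in dE2 and 8.20, 5.24 and 9.06 CPM in FL. Within dE2, replicate 1 was highest and replicate 2 lowest for Il10, Il24 and Il9, an order largely set by choosing genes for closeness to Il10. Within FL, Il10 and Il24 were highest in replicate 1 and Il9 in replicate 3.

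Ebi3 (ENSMUSG00000003206, chromosome 17, 55952623 to 55957021, plus strand) encodes the cytokine subunit EBI3. It stood at 9.17, 9.29 and 11.5 CPM in dE2, against 5.85, 9.88 and 9.20 CPM in FL. The groups overlapped, with FL replicate 1 the lowest of the 6. The log2 fold change was 0.26 ± 0.20 (SE; edgeR quasi-likelihood test, adjusted p = 0.463), with a 95% interval of 0.902- to 1.60-fold. Reads carried no strand information, and 270 of the 1154 exon bases that GENCODE M21 gives Ebi3 are shared with the antisense gene Gm16712, which stood at 0.870 to 1.79 CPM in dE2 and 1.06 to 1.37 CPM in FL. Il12a and Il27, whose products pair with EBI3 in IL-35 and IL-27, were not analysed here.

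Fgl2 (ENSMUSG00000039899, chromosome 5, 21372642 to 21378374, plus strand) had the second largest difference. It stood at 40.6, 23.5 and 20.4 CPM in dE2, against 17.4, 10.5 and 13.8 CPM in FL. Each dE2 library was above each FL library, and dE2 replicate 1 was the highest of all. The mean was 28.1 ± 10.9 CPM in dE2 and 13.9 ± 3.44 CPM in FL (SD, n = 3 each), a log2 fold change of 1.02 ± 0.31 (SE) that did not pass the edgeR quasi-likelihood test (adjusted p = 0.119). The 95% interval of the fold was 1.20 to 3.44. Fgl2 lies within the gene Ccdc146 of the opposite strand and shares 0 exon bases with it, and Ccdc146 stood at 0.468 to 1.01 CPM in dE2 and 0.496 to 1.08 CPM in FL. The outcome depended on the fit. Fgl2 passed with DESeq2 (1.02 ± 0.24, adjusted p = 8.0e-04), limma-voom (0.99 ± 0.24, adjusted p = 0.034) and edgeR's likelihood ratio test (1.02 ± 0.32, adjusted p = 0.025), and has an adjusted p of 0.0017 in the authors' deposited table. Of all tested genes these 3 fits called 4.96%, 2.93% and 4.57% higher. The main fit did not use the pairing by replicate number. With the number as a block, which calls 11.5% of all tested genes higher, the log2 fold change was 0.99 ± 0.13 (edgeR, adjusted p = 4.3e-11). That small p draws on spread pooled over all genes and does not rest on the 3 pairs of Fgl2 values alone. Between libraries of the same number dE2 was 2.33-, 2.23- and 1.47-fold higher. With dE2 replicate 1 left out the difference was smaller, 0.66 ± 0.18, and passed (edgeR, adjusted p = 0.027).

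The library highest in Fgl2 and Il10 was also the highest in Cd8a, Cd8b1 and Lyz2, markers of other cells. The summed dendritic cell markers were highest in dE2 replicate 3 (15.5 CPM) and Pecam1 in dE2 replicate 2 (253 CPM). In dE2 replicate 1, Cd8a stood at 99.2 CPM, Cd8b1 at 38.9 CPM and the myeloid lysozyme gene Lyz2 at 14.7 CPM. In dE2 replicates 2 and 3, Cd8a was 33.9 and 28.8 CPM, Cd8b1 24.5 and 22.0 CPM and Lyz2 2.32 and 0.759 CPM. In FL replicates 1 to 3, Cd8a was 32.7, 14.9 and 30.0 CPM, Cd8b1 20.3, 14.0 and 18.3 CPM and Lyz2 1.48, 0.179 and 1.77 CPM. Cd8b1, like Fgl2, was higher in each dE2 library than in each FL library (log2 fold change 0.70 ± 0.22, edgeR quasi-likelihood test, adjusted p = 0.090), and Fgl2 and Cd8b1 had the same order of libraries. Without dE2 replicate 1 the log2 fold changes of Il10 and Fgl2 were 1.99 and 0.66, and both passed. The part of these other cells in the 2 genes' differences was not tested.

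**Figure D2:**
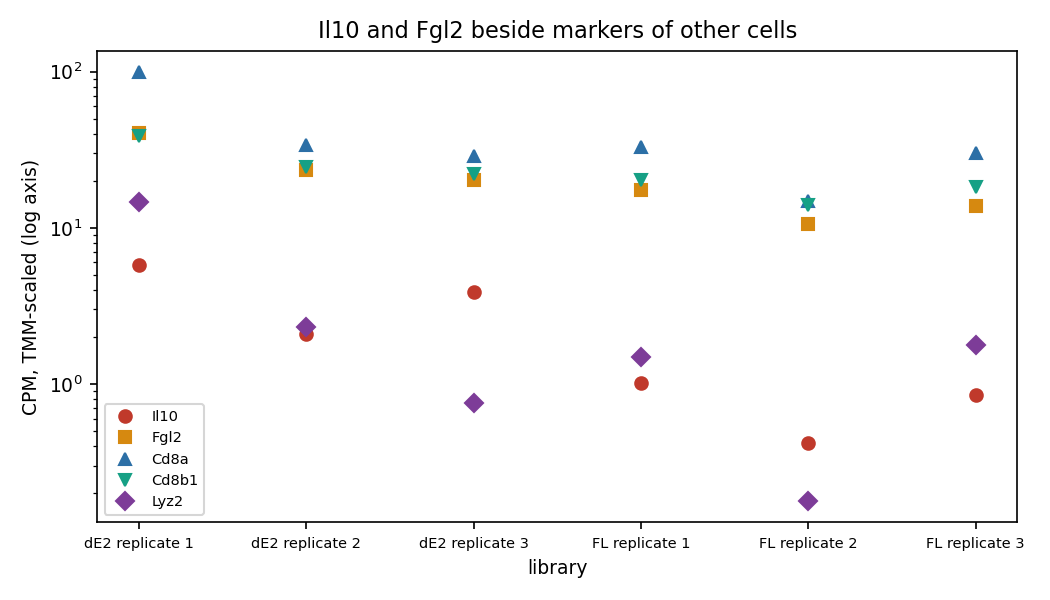
CPM on a log axis of Il10 and Fgl2 in each of the 6 libraries (dE2 left, FL right), beside the CD8 T cell markers Cd8a and Cd8b1 and the myeloid marker Lyz2. All 5 genes are highest in dE2 replicate 1. Fgl2 falls between 10.5 and 40.6 CPM, Cd8b1 between 14.0 and 38.9 CPM, and Il10 has its dE2 values between 2.09 and 5.75 CPM.

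The bases before 2 of the genes are shown to set the member with the second largest difference beside one whose difference was near 0. They are RefSeq promoter windows of the build GRCm38.p6, kept to the bases before the first counted base, at chr5:21372423-21372641 for Fgl2 and chr9:14859960-14860209 for Gpr83, both on the plus strand and written 5′ to 3′. Capitals mark E-boxes (CANNTG, a palindromic pattern read on both strands).
Fgl2: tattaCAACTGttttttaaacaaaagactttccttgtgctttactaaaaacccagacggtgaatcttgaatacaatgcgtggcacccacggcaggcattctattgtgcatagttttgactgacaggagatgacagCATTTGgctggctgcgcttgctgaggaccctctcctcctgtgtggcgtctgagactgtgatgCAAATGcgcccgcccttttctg
Gpr83: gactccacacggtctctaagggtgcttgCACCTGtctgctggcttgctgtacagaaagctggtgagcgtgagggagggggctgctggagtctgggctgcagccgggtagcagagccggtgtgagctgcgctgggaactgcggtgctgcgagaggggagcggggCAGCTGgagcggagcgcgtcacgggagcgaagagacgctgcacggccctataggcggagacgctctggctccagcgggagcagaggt
The Fgl2 run has 219 bases, a GC content of 47.5% and 3 E-boxes, and the Gpr83 run 250 bases, 66.8% and 2 E-boxes. RefSeq windows were matched for 6 of the 8 genes (Ebi3, Tgfb1, Fgl2, Nrp1, Gpr83 and Izumo1r). Motifs were counted in the whole 250 bases before the RefSeq start, which for Fgl2, Nrp1 and Izumo1r reach into the counted gene. An E-box stood in these windows of Fgl2, Gpr83 and Izumo1r, and in 66.2% of all 32851 such windows. The SMAD motif AGAC, on either strand, stood in all 6 windows and in 82.9% of all. The forkhead pattern GTAAACA, on either strand, had 0 matches in the 6 windows and stood in 3.17% of all. A match is a description of the letters only.

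Tgfb1 (ENSMUSG00000002603, chromosome 7, 25687002 to 25705077, plus strand) encodes TGF-beta 1. It stood at 13.1, 9.22 and 15.1 CPM in dE2, against 14.4, 17.5 and 16.6 CPM in FL. The groups overlapped, since dE2 replicate 3 was above FL replicate 1, and dE2 replicate 2 was the lowest. The log2 fold change of -0.37 ± 0.17 (SE) did not pass the edgeR quasi-likelihood test (adjusted p = 0.205), and the 95% interval was 0.603- to 0.991-fold. With the replicate block, which calls 10.1% of all tested genes lower, it was -0.39 ± 0.14 and passed (edgeR, adjusted p = 0.037). Between libraries of the same number the ratio of dE2 to FL was 0.907, 0.527 and 0.912, so that pair 2 differed most. Without dE2 replicate 2 the log2 fold change was -0.20.

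Lrrc32 (ENSMUSG00000090958, chromosome 7, 98489283 to 98502181, plus strand) encodes GARP, the docking protein of latent TGF-beta. It stood at 326.5, 335 and 360 CPM in dE2, against 399.8, 385 and 362 CPM in FL. Each dE2 library was below each FL library, though dE2 replicate 3 and FL replicate 3 nearly met. The log2 fold change of -0.17 ± 0.12 (SE) did not pass the edgeR quasi-likelihood test (adjusted p = 0.442), with a 95% interval of 0.749- to 1.06-fold. Its spread was small, with a mean of 340.5 ± 17.7 CPM in dE2 and 382 ± 19.1 CPM in FL (SD, n = 3 each). With library totals alone, without the TMM composition factor, its log2 fold change was -0.30, also short of the threshold (adjusted p = 0.105).

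The surface markers differed little. Nrp1 (ENSMUSG00000025810, chromosome 8, 128358604 to 128503363, plus strand), the neuropilin receptor for semaphorins and vascular endothelial growth factor, stood at 306, 343.5 and 299.5 CPM in dE2, against 402, 292 and 342 CPM in FL. FL replicate 1 was the highest and FL replicate 2 the lowest, so the FL libraries enclosed those of dE2. The log2 fold change was -0.13 ± 0.13 (SE; edgeR quasi-likelihood test, adjusted p = 0.623), with a 95% interval of 0.757- to 1.11-fold.

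Gpr83 (ENSMUSG00000031932, 14860210 to 14870789, plus strand) and Izumo1r (ENSMUSG00000031933, 14885814 to 14903949, minus strand) are neighbours on chromosome 9, 15024 bases apart with no other counted gene lying between them. Gpr83 stood at 608, 719 and 525 CPM in dE2, against 651, 532.5 and 609 CPM in FL. Izumo1r stood at 851, 988.5 and 901 CPM in dE2, against 799, 883 and 983 CPM in FL. In both genes the groups overlapped widely, and dE2 replicate 2 was the highest of the 6 libraries. The log2 fold change was 0.05 ± 0.14 for Gpr83 and 0.04 ± 0.13 for Izumo1r (SE; edgeR quasi-likelihood test, adjusted p = 0.885 and 0.898). Their 95% intervals ran from 0.845- to 1.26-fold and from 0.848- to 1.25-fold. For both genes the sign of the log2 fold change turned without the composition factor, to -0.09 for Gpr83 and -0.10 for Izumo1r.

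**Figure D3:**
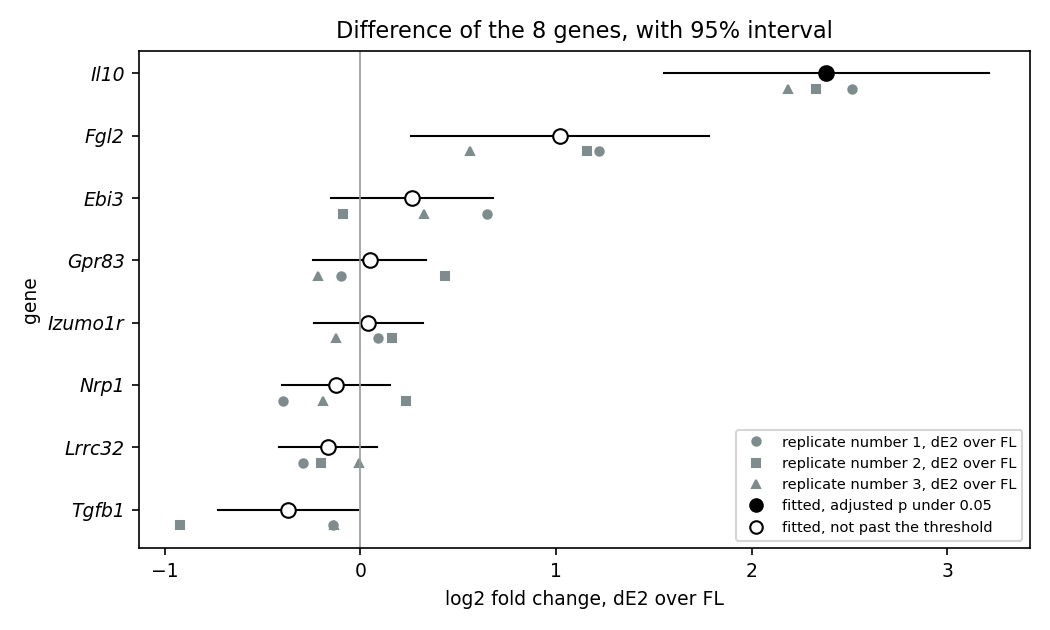
Log2 fold change, dE2 over FL, of the 8 genes (circles, filled where the adjusted p was under 0.05) with its 95% interval, and below each the ratio between libraries of the same replicate number (grey). Il10 at 2.38 is filled, Fgl2 at 1.02 lies right of 0 with its interval, the interval of Tgfb1 ends just under 0, and those of the other 5 genes include 0.

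**Figure D4:**
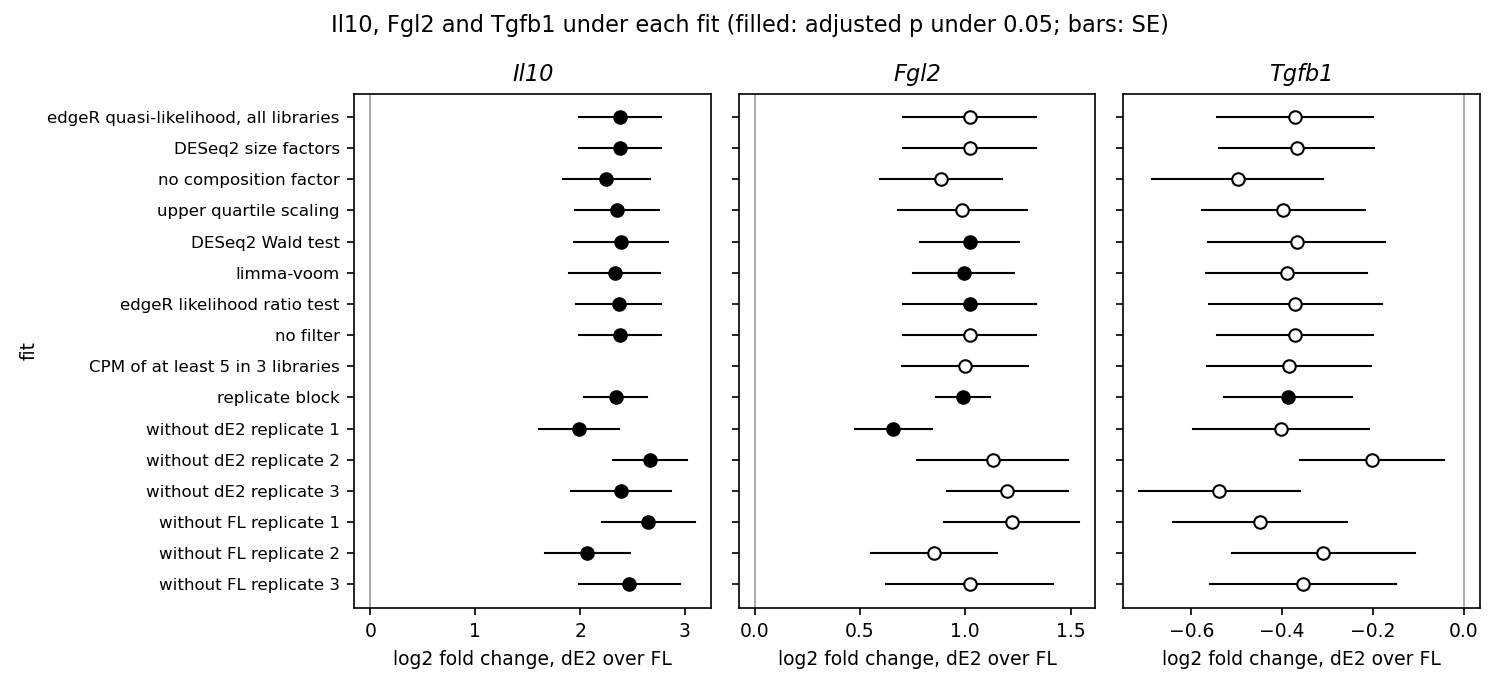
Log2 fold change (dE2 over FL, with SE bars) of Il10, Fgl2 and Tgfb1 under each fit, filled where the adjusted p was under 0.05. Il10 is filled in each fit that kept it, Fgl2 in 5 of 16 fits with values of 0.66 to 1.22, and Tgfb1 with the replicate block alone.

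The genes that work with the 8 genes were counted in the same fit, by role. Over all tested genes 3.75% were called higher and 2.43% lower, and with the replicate block 11.5% and 10.1%. Of the receptors for the ligands, 3 of 8 tested genes rose in dE2 and 0 fell, with a list median of 0.30 (all tested genes -0.0043). With the replicate block 4 rose and 1 fell. Tgfbr3, the TGF-beta co-receptor, stood at 59.1 ± 4.51 CPM in dE2 and 27.1 ± 5.32 CPM in FL (SD, n = 3; log2 fold change 1.13 ± 0.14 SE, edgeR quasi-likelihood test, adjusted p = 4.7e-05). Il27ra, the IL-27 receptor chain, stood at 394 ± 53.8 CPM in dE2 and 265 ± 24.0 CPM in FL (0.57 ± 0.13, adjusted p = 0.013). Il10ra, the ligand-binding chain of the IL-10 receptor, stood at 128 ± 14.6 CPM in dE2 and 94.9 ± 3.73 CPM in FL (0.43 ± 0.12, adjusted p = 0.034). Il27ra no longer passed when dE2 replicate 2 was left out (adjusted p = 0.117), nor without FL replicate 1 (0.0753) or 2 (0.0606). Il10ra lost its call without dE2 replicate 2 (0.202), FL replicate 1 (0.150), FL replicate 2 (0.102) or FL replicate 3 (0.0811), without the composition factor (0.0985) and with limma-voom (0.0506). Il6st, the gp130 chain used by IL-27 and IL-35 receptors, stood at 100.2 ± 14.5 CPM in dE2 and 145 ± 35.5 CPM in FL (-0.53 ± 0.16, adjusted p = 0.067), and passed with the replicate block (adjusted p = 6.8e-06), DESeq2 (0.0257) and the likelihood ratio test (0.0309), and without FL replicate 2 (0.0160), without dE2 replicate 1 (0.0319) and without the composition factor (0.0227). Il12rb2, an IL-12 receptor chain that also serves IL-35, was named after its values were seen. It stood at 96.9 ± 27.2 CPM in dE2 and 47.3 ± 19.1 CPM in FL, with each dE2 library above each FL library (1.03 ± 0.42, adjusted p = 0.255), and passed with the replicate block (adjusted p = 3.1e-20). Between libraries of the same number dE2 was 2.57-, 1.91- and 1.96-fold higher. Without dE2 replicate 2, FL replicate 1 or FL replicate 2, 1 receptor gene was called higher. The type I and II TGF-beta receptors, also named after their values were seen, did not pass, with log2 fold changes of -0.13 for Tgfbr1 and 0.00 for Tgfbr2, at 121 CPM in both groups for Tgfbr2.

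Of 8 tested genes for TGF-beta release, 0 were called with the edgeR quasi-likelihood test, and 1 had an unadjusted p under 0.05. This was Itgb8, the integrin chain that frees TGF-beta from its latent form, at 2.33 ± 0.699 CPM in dE2 and 1.41 ± 0.629 CPM in FL (SD, n = 3; 0.75 ± 0.33 SE, adjusted p = 0.182), which passed with the replicate block (adjusted p = 0.048). Its partner chain Itgav (0.17 ± 0.13), the GARP relative Nrros (0.20 ± 0.12) and the matrix protein gene Thbs1 (-0.36 ± 0.21) did not pass. Of the interleukin partner subunits 2 of 6 could be tested and 0 were called. Il23a stood at 2.77 ± 1.15 CPM in dE2 and 1.31 ± 0.468 CPM in FL (1.07 ± 0.34, adjusted p = 0.064) and passed with the block (adjusted p = 0.0047), the likelihood ratio test (0.0368) and without FL replicate 2 (0.0419), and Clcf1 had a log2 fold change of -0.13 ± 0.15.

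Of 8 tested neuropilin partners and ligands, Sema4a rose and 0 fell. Sema4a, a semaphorin that binds neuropilin 1 on mouse Treg, stood at 27.0 ± 4.41 CPM in dE2 and 16.9 ± 4.43 CPM in FL (SD, n = 3; 0.68 ± 0.17 SE, edgeR quasi-likelihood test, adjusted p = 0.030). Its call was lost without dE2 replicate 1, 2 or 3 (adjusted p = 0.0618, 0.121 and 0.0606), without FL replicate 1 or 2 (0.0938 and 0.0966) and without the composition factor (0.0786), and was kept without FL replicate 3 (0.0066). Vegfa (-0.52 ± 0.22), Plxna1 (0.21 ± 0.15) and Plxnd1 (-0.24 ± 0.18) did not pass, and Vegfa passed with the replicate block (adjusted p = 0.0031), without FL replicate 1 (0.0443) and without dE2 replicate 3 (0.0408).

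Of 14 transcription factors linked to Il10, 0 rose and Gata3, the type 2 helper regulator, fell (26.6 ± 3.21 CPM in dE2 and 42.5 ± 4.18 CPM in FL, SD, n = 3; -0.67 ± 0.13 SE, edgeR quasi-likelihood test, adjusted p = 0.0039). Bhlhe40, a repressor of Il10, stood at 164 ± 11.5 CPM in dE2 and 124 ± 19.1 CPM in FL (0.41 ± 0.13, adjusted p = 0.057), and passed with the replicate block (3.1e-04), DESeq2 (0.0317) and the likelihood ratio test (0.0433), and without FL replicate 2 (0.0370) or dE2 replicate 1 (0.0434). The differences of Nfil3 (-0.50 ± 0.19) and Rbpj (0.32 ± 0.13) did not pass either, and passed with the replicate block alone (edgeR, adjusted p = 0.025 and 0.0054). With the replicate block, which calls 11.5% of all tested genes higher and 10.1% lower, 3 genes of this list rose and 2 fell. Without dE2 replicate 1, 2 rose and 1 fell, in a fit that called 780 of all genes higher and 587 lower. Maf, an activator of Il10 in many T cells, stood at 44.7 ± 8.45 CPM in dE2 and 42.6 ± 13.3 CPM in FL (0.07 ± 0.22, adjusted p = 0.890), and Prdm1 at 6.04 ± 1.38 CPM in dE2 and 5.32 ± 2.85 CPM in FL (0.17 ± 0.36, adjusted p = 0.835). Both were named after their values were seen.

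Of 18 other genes listed as mediators of suppression, 9 rose in dE2 and 0 fell, with a list median of 0.59 (all tested genes 3.75% higher and 2.43% lower). The list was chosen with earlier results of these data known, and the RNA level of its genes does not measure suppression. With the replicate block, which calls 11.5% of all tested genes higher and 10.1% lower, 11 rose and 1 fell. The added calls, named after their values were seen, were Icos (edgeR quasi-likelihood test with the block, adjusted p = 0.0113) and Tnfrsf18 (0.0338), higher, and Lgals9 (0.0478), lower. The 4 with the smallest p were Penk, which encodes the enkephalin precursor (116 ± 24.6 CPM in dE2 and 43.2 ± 6.22 CPM in FL, SD, n = 3; log2 fold change 1.43 ± 0.15 SE), the inhibitory receptor genes Pdcd1 (0.96 ± 0.13) and Havcr2 (1.15 ± 0.18), and the perforin gene Prf1 (0.77 ± 0.12), with adjusted p of 4.6e-05 to 5.2e-04 in the edgeR quasi-likelihood test. These 4 stayed called with any 1 library left out. The remaining genes of the list called higher, named after their values were seen, were Tigit, Cd274, Gzmb, Nt5e and Lag3. Without dE2 replicate 2 the list had 5 genes called higher, and over all genes 125 were called higher, against 548 with all libraries. Ctla4 (-0.08 ± 0.16), Lgals1 (-0.05 ± 0.13), Il2ra (0.05 ± 0.15) and Areg (-0.04 ± 0.29), named after their values were seen, had the largest p of the list. Among relatives of the 8 genes, 3 of 7 could be tested. Il24 rose (2.21 ± 0.23, edgeR quasi-likelihood test, adjusted p = 9.9e-05), Nrros did not pass, and Nrp2 stood at 2.43 ± 0.496 CPM in dE2 and 3.07 ± 0.658 CPM in FL (-0.32 ± 0.27, adjusted p = 0.509).

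**Figure D5:**
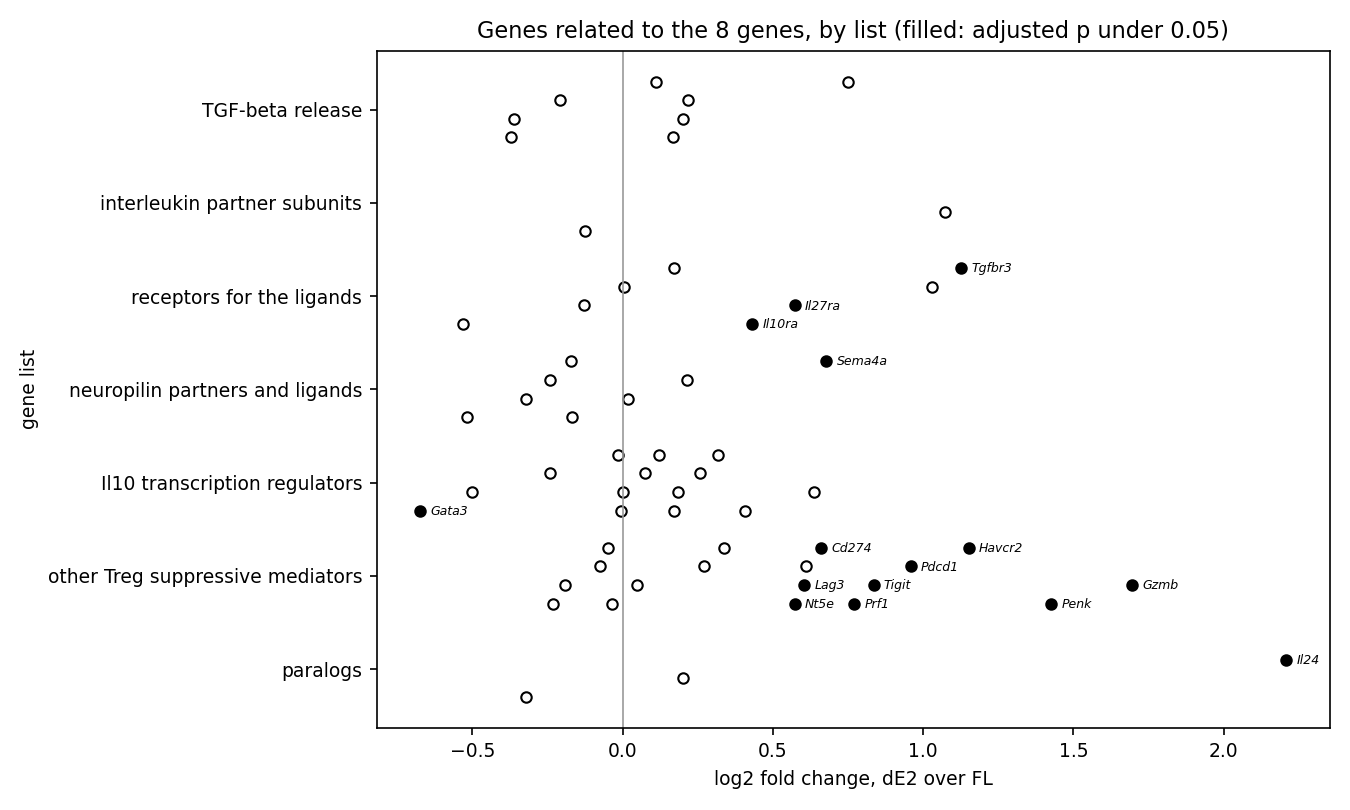
Log2 fold change, dE2 over FL, of each tested gene in 7 lists around the 8 genes, filled and named where the adjusted p was under 0.05. The other suppressive mediators have 9 filled points, all right of 0, the receptors 3, and the transcription factors 1, Gata3, left of 0.

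TMM, a composition factor, sets the level at which a fold change is 0. With library totals alone the median log2 fold change of all tested genes was -0.14, and the calls were 264 higher and 954 lower in place of 548 and 355. Il10 passed on that scale (2.25 ± 0.41, edgeR quasi-likelihood test, adjusted p = 0.0071). The share of high-quality reads that fell in genes, from the mapping statistics of the authors, was 75.4% for dE2 replicate 1, 75.5% for dE2 replicate 2 and 69.3% for dE2 replicate 3, and 69.3% to 71.5% for the FL libraries. The part of this share in the differences was not tested.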

How the data were processed

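Polyadenylated RNA of 3 dE2 and 3 FL libraries was sequenced. The submitters' processing notes name the build mm10, edgeR 3.20.8, the aligner STAR 2.5 and Subread 1.5.1 with featureCounts, without settings. The authors deposited raw counts for 14777 genes, per the file headers, with exon coordinates and length. Their log2 CPM columns, deposited beside the counts, were not used. The authors also deposited a log2 fold change and p-value per gene from their test, quoted as theirs. The authors' mapping table, per its row names, gives reads and percent of high-quality reads. In it sense reads made up 48.4% to 49.8% of coding reads, so counts carry no strand information.

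Counts of all genes were filtered with filterByExpr (14632 kept), scaled with TMM and tested in R 4.3.3 with edgeR 4.0.16 (robust glmQLFit, glmQLFTest, group alone, two-sided), with Benjamini-Hochberg adjustment over all tested genes and a threshold of 0.05. SE is the size of the log2 fold change over the square root of F. The 95% intervals use the fit's degrees of freedom. RPKM is TMM-scaled CPM per kilobase. The code was tested on simulated data. An exact permutation test of 3 against 3 cannot pass 0.05, so none was run.

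Replicate numbers are shared by the groups. Deviations from the group means in log2 CPM (prior count 2) correlated at 0.392, 0.207 and 0.185 between same-numbered libraries and at -0.287 to 0.0972 between others. Since all 3 exceeded 0.1, a fit with the replicate number as a block was run beside the main fit, which used group alone. No label says what same-numbered libraries have in common. The block lowered the coefficient of variation to 9.2%, against 13.1% without it.

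The 8 genes, the related lists and the markers were chosen with earlier results of these data known. Named genes are the 8, Foxp3, up to 4 genes of each list with the smallest p, the 3 genes closest to a called member, and markers. Others are said to be named after their values were seen. Alternatives were DESeq2 1.42.0, limma-voom (limma 3.58.1), the likelihood ratio test, 3 other scalings, 2 other filters, a threshold of 0.01, the replicate block and each library left out. The authors' enrichment sheets were not used.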

Additional observations from a re-analysis of the deposited data

How the results depend on the processing

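Il10 kept its direction and its call in each alternative that gave a value. Under the filter of CPM of at least 5 in 3 libraries it was not tested. Lrrc32, Nrp1 and Ebi3 kept their direction and stayed short of the threshold in all alternatives. Fgl2 kept its direction and passed with DESeq2 (1.02), limma-voom (0.992), the likelihood ratio test (1.02) and the replicate block (0.989), and without dE2 replicate 1 (0.657). Tgfb1 passed with the replicate block alone (-0.387). The block changed no other member's call. Gpr83 and Izumo1r, near 0 throughout, turned to -0.0941 and -0.0973 without the composition factor, whose lack moves all genes down by construction. The members called higher were 1, and 2 with DESeq2, limma-voom, the likelihood ratio test, the replicate block or without dE2 replicate 1, and 0 under the stricter filter. Over all genes the main fit called 548 higher, those alternatives 726, 429, 669, 1678 and 780 in the same order, and the stricter filter 492. The members called lower were 0, and 1 with the block, which called 1471 of all genes lower, against 355 in the main fit.

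With 1 library left out, log2 fold changes ran from 1.99 to 2.67 for Il10, 0.657 to 1.22 for Fgl2, -0.538 to -0.202 for Tgfb1, -0.0807 to 0.146 for Gpr83 and -0.0305 to 0.118 for Izumo1r. The members called higher numbered 1 to 2. Over all genes 125 to 780 were higher (548 with all libraries) and 51 to 587 lower (355), fewest without dE2 replicate 2. Gpr83 turned to -0.0807 without dE2 replicate 2 and to -0.0291 without FL replicate 2, and Izumo1r to -0.0235 without dE2 replicate 2 and to -0.0305 without FL replicate 1. All genes called higher and lower were 264 and 954 without the composition factor, 1678 and 1471 with the block, and 184 and 57 at an adjusted p under 0.01. With limma-voom 227 were lower. The cause of these shifts was not tested. Il10 rests on 7 to 86 counts a library, which limits its precision.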
